A study of Drosophila melanogaster with 56 samples.

Results

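The sarcomere genes described here were 10 genes of *Drosophila melanogaster* picked by FlyBase gene ID, among 17558 gene IDs in the count files. They were *Mhc*, *Mlc1*, *Mlc2*, *Prm*, *bt*, *sls*, *Tm1*, *Tm2*, *up* and *TpnC73F*, and all 10 were present in every file and passed the filter on low counts. RNA was measured in whole embryos of the wild-type strain Oregon R every hour up to 6 h after egg laying (0, 1, 2, 3, 4, 5 and 6 h) and at 8, 10, 12, 14, 16, 18 and 20 h. Each time point had 4 replicates, giving 56 libraries, and no group carried a mutation or a treatment. The eggs of a collection were laid within 30 min. The study paired this time course with protein measurements, which are not used here, to ask how mRNA and protein levels relate during embryonic development.

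The sarcomere is the contractile unit of striated muscle, in which thick filaments of myosin slide along thin filaments of actin. Troponin and tropomyosin sit on the thin filament and let myosin bind only when calcium is present, and giant titin-like proteins connect the thick filament to the Z-disc, where thin filaments are anchored. In the fly embryo, body wall muscles arise by fusion of myoblasts, and the contractile genes are turned on as these muscle fibres differentiate, before the larva hatches. Because whole embryos were used, more muscle cells and more RNA per muscle cell cannot be told apart in these data.

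Of the thick filament genes, *Mhc* (FBgn0264695) encodes the only muscle myosin heavy chain of the fly and lies at 2L:16766566-16788766 (BDGP6, Ensembl annotation, plus strand). *Mlc1* (FBgn0002772, 3R:27657078-27660177) encodes the alkali light chain and *Mlc2* (FBgn0002773, 3R:30171438-30174551) the regulatory light chain of that myosin. *Prm* (FBgn0003149, 3L:8732858-8745310) encodes paramyosin, which lies in the core of the thick filament. The titin-like genes are *bt* (FBgn0005666, 4:724400-776474), which encodes projectin, and *sls* (FBgn0086906, 3L:2039681-2115611), which encodes Sallimus, including its short form kettin. On the thin filament side, *Tm1* (FBgn0003721, 3R:15278220-15308779) and *Tm2* (FBgn0004117, 3R:15310193-15315197) are neighbours and encode tropomyosins. *up* (FBgn0004169, X:13593474-13602578) encodes troponin T, and *TpnC73F* (FBgn0010424, 3L:17046063-17048390) encodes a troponin C, the calcium sensor. Their exonic lengths were between 1059 bp for *TpnC73F* and 58996 bp for *sls*. The 13 annotated transcripts of *sls* were 15263 to 56489 nt long and the 18 of *Tm1* were 752 to 3054 nt long, so that a level per total exonic length understates genes of which short transcripts were used. Exons of other genes on the opposite strand overlapped 2.86% of the exonic length of *Tm1* and 1.85% of that of *sls*, and the strand setting used for counting was not stated.

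Counts on genes were 13422473 to 22536043 per library. Levels are given as RPKM, counts scaled to the exonic length of the gene and to all counts on genes of the library. The 10 genes together took 0.0543% of the counts in the lowest library and 2.50% in the highest. At 1 h their share was between 0.0714% and 0.0775%, at 12 h between 0.116% and 0.149%, at 14 h between 0.300% and 0.437%, and at 20 h between 1.31% and 2.50%. The lowest count of any of the 10 genes in a library was 18. As a check of the early time points, 4 genes of maternal transcripts (*osk*, *bcd*, *png* and *gnu*) summed to 1268 to 1757 CPM at 0 h and to at most 43.9 CPM in every library from 3 h on.

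All 10 genes had their highest median level at 20 h. *Mlc2* was the most abundant there, with 1914 ± 793 RPKM (mean ± SD, n = 4), followed by *Mlc1* with 1032 ± 369 RPKM. *up* (869 ± 245 RPKM), *TpnC73F* (699 ± 154 RPKM) and *Tm2* (552 ± 198 RPKM) came next. *Mhc* had 406 ± 60.6 RPKM, *Tm1* 209 ± 71.8 RPKM, *Prm* 171 ± 53.5 RPKM, *bt* 73.0 ± 23.2 RPKM and *sls* 13.3 ± 4.37 RPKM. In this order the replicate ranges of neighbours overlapped, except between *Mhc* and *Tm1*, *Prm* and *bt*, and *bt* and *sls*. At 12 h the order was another one, with *Tm1* at the top (54.0 ± 1.37 RPKM, n = 4) ahead of *Mlc2* (35.5 ± 13.8 RPKM, n = 4), whose replicates overlapped with those of *Tm1*.

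**Figure D1:**
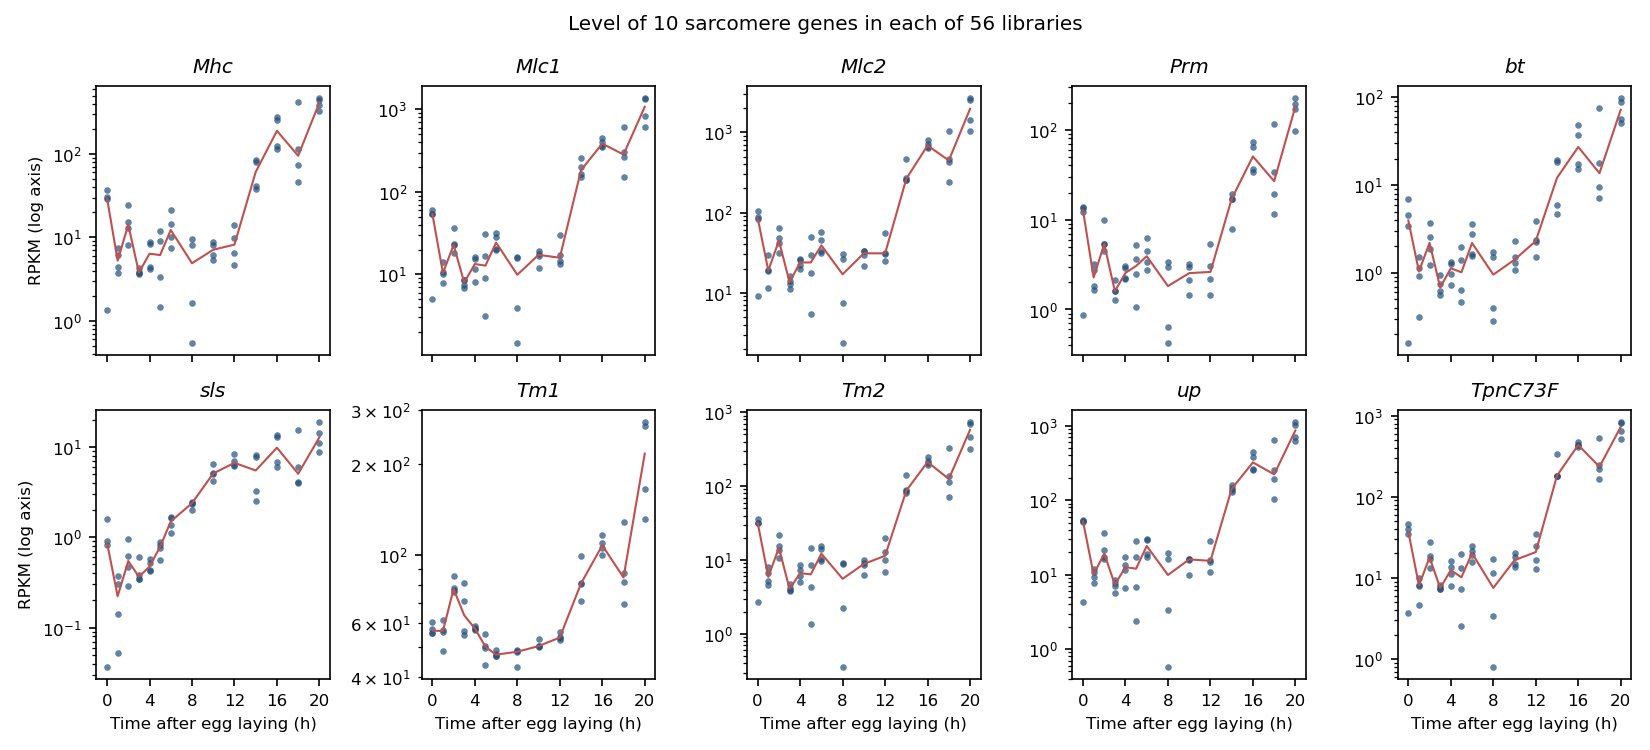
RPKM (log axis) of each of the 10 sarcomere genes against time after egg laying in h, with 1 point per library (4 per time point) and a line through the medians. For 8 genes the points stay low and scattered up to 12 h and the medians are higher from 14 h on. *sls* climbs from 3 to 12 h, and *Tm1* is present at 43.0 RPKM or more in every library. For each gene the median at 18 h lies below that at 16 h.

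The first question was when the contractile genes rose. Changes were tested with edgeR over all genes, and a call needed both an adjusted p below 0.05 and a difference of 2-fold or more. From 12 to 14 h, 8 of the 10 genes rose, where 17.9% of the 11065 genes tested rose. The other two were *Tm1* and *sls*. On the log2 scale the 10 genes had a median change of 2.84, against 0.08 over all genes tested.

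Among the thick filament genes, *Mhc* had 85.2, 38.2, 80.02 and 41.7 RPKM at 14 h, against 14.0, 4.70, 9.80 and 6.59 RPKM at 12 h. The lowest library of 14 h was above the highest of 12 h, and the log2 fold change was 2.73 ± 0.68 (SE; edgeR adjusted p = 0.00103). *Mlc2* had 256, 273, 252 and 467 RPKM at 14 h, against 55.7, 24.5, 30.5 and 31.4 RPKM at 12 h. This was a log2 fold change of 3.07 ± 0.57 (edgeR adjusted p = 2.6e-05), and replicate 4 of 14 h stood above the other replicates. *Mlc1* rose by 3.33 ± 0.56 on the log2 scale (edgeR adjusted p = 6.9e-06), the highest value among the 10 genes. *Prm* rose by 2.26 ± 0.60 (edgeR adjusted p = 0.00181).

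Projectin, encoded by *bt*, had 19.2, 4.74, 18.3 and 5.91 RPKM at 14 h, against 3.90, 1.52, 2.26 and 2.35 RPKM at 12 h. The groups did not overlap, but replicates 2 and 4 of 14 h lay close to the highest library of 12 h. The log2 fold change of *bt* was 2.18 ± 0.67 (edgeR adjusted p = 0.00682), the lowest among the 8 genes. *sls* had 7.72, 2.51, 8.11 and 3.21 RPKM at 14 h, against 6.26, 7.01, 8.30 and 6.18 RPKM at 12 h. Its groups overlapped and its log2 fold change was -0.43 ± 0.50 (edgeR adjusted p = 0.487).

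On the thin filament, *TpnC73F* had 183, 181, 182 and 338 RPKM at 14 h, against 35.1, 12.99, 16.8 and 24.8 RPKM at 12 h, a log2 fold change of 3.24 ± 0.55 (edgeR adjusted p = 6.75e-06). *up* rose by 3.00 ± 0.64 (edgeR adjusted p = 0.000194) and *Tm2* by 2.95 ± 0.59 (edgeR adjusted p = 7.83e-05), both on the log2 scale. *Tm1* had 81.1, 70.7, 80.5 and 99.2 RPKM at 14 h, against 54.0, 52.6, 53.4 and 55.8 RPKM at 12 h. These groups did not overlap and the log2 fold change was 0.58 ± 0.17 (edgeR adjusted p = 0.00519), below the 2-fold minimum. The same 8 genes were called when any of the 8 libraries of 12 and 14 h was left out. The share of all genes that rose was not recorded for those fits. With a replicate of every time point left out, it was 12.9% to 17.5%.

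**Figure D2:**
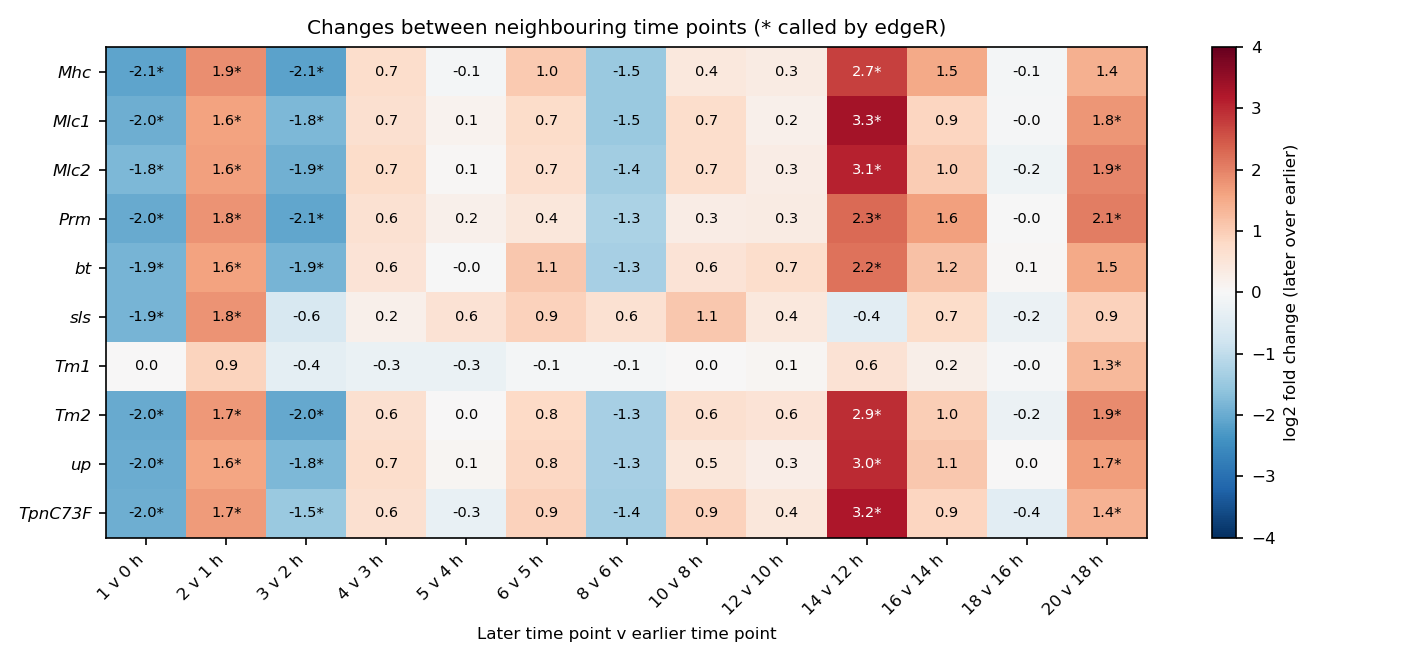
Log2 fold change (later over earlier) of the 10 genes, in rows, in the 13 comparisons of neighbouring time points, in columns, with an asterisk where edgeR called the gene. Red columns stand at 14 against 12 h and 20 against 18 h, and alternating blue and red columns stand at 0 to 3 h, where *Tm1* differs least.

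Over the longer span from 8 to 14 h, the same 8 genes rose, where 30.7% of all genes tested rose. For all 10 genes every library of 14 h was above every library of 8 h, as was the case for 39.4% of all genes tested. Log2 fold changes of the 8 genes were between 2.88 for *Prm* and 4.61 for *TpnC73F*. *sls* had 1.06 ± 0.50 (edgeR adjusted p = 0.0544) and *Tm1* 0.67 ± 0.17 (edgeR adjusted p = 0.00066, below the 2-fold minimum). From 14 to 20 h all 10 genes rose, where 22.8% of all genes tested rose. Here *Prm* had the largest log2 fold change, 3.66 ± 0.62 (edgeR adjusted p = 2.58e-06), and *sls* the smallest, 1.42 ± 0.50 (edgeR adjusted p = 0.0132). *Tm1* rose by 1.51 ± 0.17 on the log2 scale (edgeR adjusted p = 2.56e-09). *Prm* had 171, 97.9, 224 and 192 RPKM at 20 h, against 19.2, 7.90, 16.9 and 17.2 RPKM at 14 h, with no overlap. *Mlc2* had 1434, 1052, 2667 and 2503 RPKM at 20 h, and replicates 3 and 4 held its highest levels in the series. *up* had 695, 625, 1030.3 and 1124 RPKM at 20 h, against 145, 129, 138 and 162 RPKM at 14 h, a log2 fold change of 2.75 ± 0.63 (edgeR adjusted p = 0.000218). *TpnC73F* had 639, 508, 837 and 812 RPKM at 20 h and a log2 fold change of 1.82 ± 0.51 (edgeR adjusted p = 0.002), the smallest among the 8 genes. *sls* had 18.8, 11.1, 14.4 and 8.73 RPKM at 20 h, and these were above all libraries of 14 h by a small margin.

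The rise after 14 h was not even between the steps. The median of each gene was lower at 18 h than at 16 h, for *Mlc2* 447 against 687 RPKM. No gene of the 10 was called by edgeR at 16 against 14 h, where 2.17% of all genes were called, nor at 18 against 16 h, where 0.398% were. At an unadjusted p under 0.05 there were 2 of the 10 genes at 16 against 14 h and 0 at 18 against 16 h. Of all genes, 27.4% and 12.7% passed. DESeq2 called 1 (*Prm*) and 0 at these steps, where it called 3.4% and 0.687% of all genes. At 20 against 18 h 7 genes rose, where 17.2% of all genes rose. These were *Mlc1*, *Mlc2*, *Prm*, *Tm1*, *Tm2*, *up* and *TpnC73F*, with log2 fold changes of 1.31 for *Tm1* to 2.05 for *Prm*. *Mhc* (log2 fold change 1.42 ± 0.65, edgeR adjusted p = 0.0657), *bt* (1.52 ± 0.65, adjusted p = 0.0504) and *sls* (0.93 ± 0.50, adjusted p = 0.121) were not called.

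This last step rested on 18 h libraries that differed among themselves. *Mhc* had 441, 329, 465 and 387 RPKM at 20 h, against 46.0, 74.1, 116 and 416 RPKM at 18 h. Replicate 4 of 18 h was thus within the range of 20 h, while the other replicates of 18 h were below or close to the lowest of 16 h (255, 114, 123 and 278 RPKM). *bt* had 88.2, 50.8, 97.2 and 55.8 RPKM at 20 h, against 7.06, 9.51, 17.8 and 74.7 RPKM at 18 h, the same picture. Without replicate 4 of 18 h all 10 genes were called at 20 against 18 h. Without replicate 1 or 2 of 18 h or replicate 4 of 20 h there were 5 genes, without replicate 3 of 20 h there were 6, and without replicate 2 of 20 h there were 8. The share of all genes called was not recorded for these fits that left out 1 library. With a replicate of every time point left out, it was 13.7% to 25.8%. Without replicate 3 of every time point 1 gene, *Tm1*, was called, where 13.7% of all genes were. With the fit restricted to the 8 libraries of 18 and 20 h there were 0, with 7 at an unadjusted p under 0.05. That restricted fit called 0 of all 10060 genes tested, 4745 of which had an unadjusted p under 0.05.

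Libraries of 14 to 20 h also differed in how many counts long genes took. In 9 of these 16 libraries, 974 genes with over 6000 bp of exons, the 10 sarcomere genes left out, held 7.89% to 12.97% of the counts. In the other 7 they held 14.9% to 17.2%, and in the 40 libraries of 0 to 12 h 11.4% to 17.5%. The line of 14% between the sets was drawn after the values were seen. The low-share libraries were replicates 2 and 4 of 14 h, 2 and 3 of 16 h, 1, 2 and 3 of 18 h, and 3 and 4 of 20 h.

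In the low-share libraries of 14 h *bt*, *sls*, *Mhc* and *Prm* were lower, and *Mlc1*, *Mlc2*, *TpnC73F* and *Tm2* were higher. *bt* averaged 5.32 RPKM in the low-share libraries and 18.7 RPKM in the others of 14 h, a log2 difference of -1.81. The log2 difference was -1.47 for *sls* and -1.05 for *Mhc*, but 0.54 for *Mlc2*, 0.53 for *Mlc1* and 0.51 for *TpnC73F*. *Tm1*, with 9804 bp of exons but transcripts of at most 3054 nt, averaged 84.9 RPKM in the low-share libraries and 80.8 RPKM in the others of 14 h. *up* averaged 145.6 RPKM in the low-share libraries and 141.7 RPKM in the others. At 16 h all 10 genes were lower in the low-share libraries, with -1.41 for *bt* and -0.10 for *TpnC73F* at the ends. At 18 h, where only replicate 4 was not of this set, differences were between -2.71 (*bt*) and -0.69 (*Tm1*). At 20 h 9 genes were higher in the low-share libraries, and *sls*, with -0.37, was lower. No test was made of these differences, because the sets were drawn from the data.

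**Figure D3:**
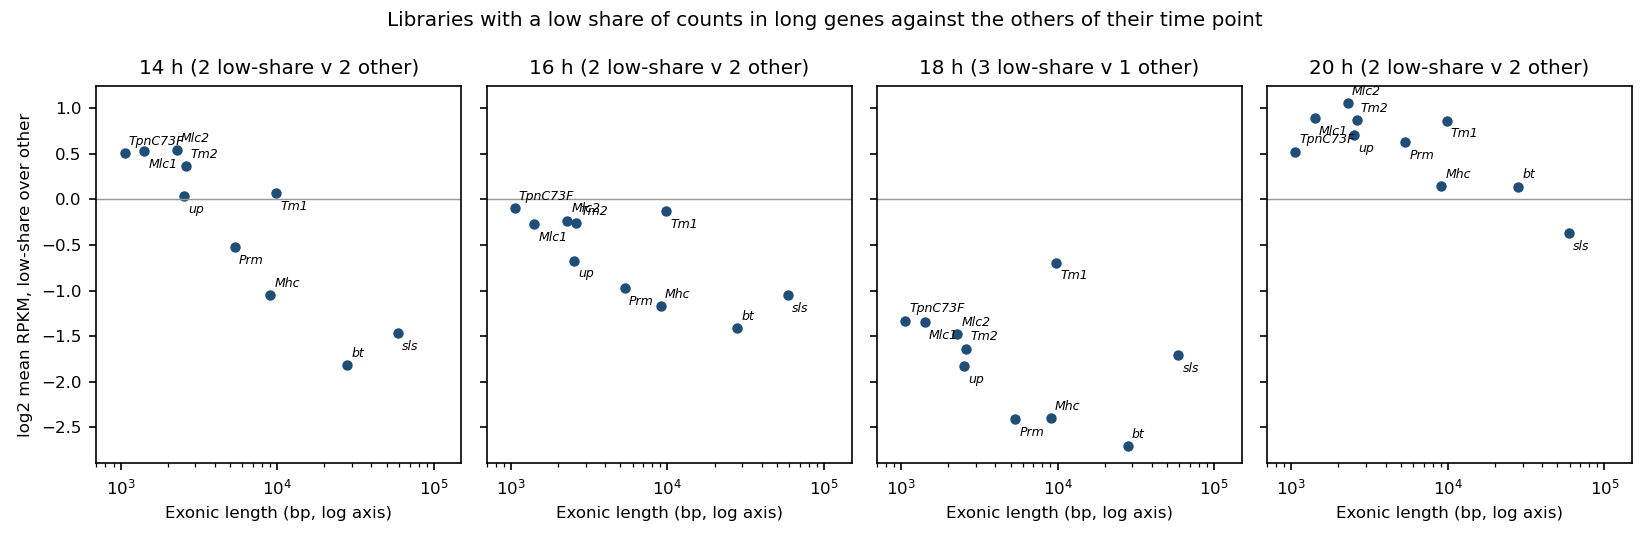
Log2 difference of mean RPKM between the low-share and the other libraries (vertical axis) against exonic length in bp (horizontal log axis), with 1 point per sarcomere gene and 1 panel per time point from 14 to 20 h. At 14 h the shortest gene, *TpnC73F*, lies at 0.51 and the 2 longest, *bt* and *sls*, at -1.81 and -1.47, while *Tm1* lies close to 0. The exonic length of *Tm1* is above that of *Prm*, but its transcripts are 752 to 3054 nt long, against 1695 to 3661 nt for *Prm*.

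Without the 9 low-share libraries, the 8 genes still rose at 14 against 12 h, with *bt* at 2.77 and *Mhc* at 3.10 on the log2 scale. *sls* then had a log2 fold change of 0.067, against -0.43 with all libraries. At 14 against 8 h 9 genes rose, *sls* included (1.55). At 20 against 14 h 6 genes rose (*Mhc*, *Mlc1*, *Mlc2*, *Prm*, *Tm2* and *up*), and *bt* (2.00), *TpnC73F* (1.76), *sls* (1.03) and *Tm1* (0.99) were not called. Of the 11756 genes tested without these libraries, 1792 rose at 14 against 12 h, 3231 at 14 against 8 h and 1570 at 20 against 14 h. At 20 against 18 h only replicate 4 of 18 h was then left, assumed to vary like the libraries of the other time points, and edgeR called 0 of all genes, 92 of them with an unadjusted p under 0.05. The 10 sarcomere genes had log2 fold changes between -0.11 and 0.24 there, and 0 had an unadjusted p under 0.05. The part of RNA quality or of embryo age in these differences was not tested.

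Before 14 h, levels of the 8 genes other than *Tm1* and *sls* moved up and down together from library to library. To describe this, each level was expressed as a percentage of the gene's mean RPKM at 20 h. In replicates 1, 2 and 3 of 0 h the median of the 8 genes was 6.28%, 5.84% and 6.00%, whereas in replicate 4 it was 0.487%. At 1 h it was between 0.862% and 1.501%, at 2 h between 1.92% and 4.07%, and at 3 h between 0.771% and 0.957%. Among 5 h libraries it was 2.88%, 0.864%, 1.90% and 0.331%, and among 8 h libraries 1.99%, 1.78%, 0.128% and 0.397%. At 12 h it was between 1.27% and 3.33%. Replicate 4 of 0 h, replicate 4 of 5 h and replicates 3 and 4 of 8 h were thus low for all 8 genes at once.

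Within a library of 0 to 12 h the highest of the 8 percentages was 1.25 to 5.92 times the lowest. Across the 40 libraries, Pearson's r of log2 levels was 0.856 to 0.989 between any pair of the 8 genes, which share the library and its depth. Of 5 neuron markers, *nSyb*, *Syt1* and *brp*, singled out after their values were seen, moved with them. Their summed level was 6.13%, 6.00% and 9.30% of its 20 h mean in replicates 1, 2 and 3 of 0 h and 0.295% in replicate 4, with r = 0.897 against the median of the 8 genes over the 40 libraries. All 5 neuron markers, which include *elav* and *Syx1A*, summed to 101, 97.5, 123 and 63.5 CPM in the 4 libraries of 0 h. For that sum r was not computed. The sum of 8 cuticle and epidermis markers, genes of late embryos, was 199.9, 129.9, 294.6 and 5.90 CPM in the 4 libraries of 0 h, with r = 0.711. In contrast, r was 0.224 for *sls* and 0.252 for *Tm1*. That r covers all time points, including the rise of *sls* from 3 to 12 h. At 0 h *sls* had 6.90%, 6.22%, 12.1% and 0.278% of its 20 h mean, low in replicate 4 like the 8 genes. What part older embryos or RNA from other samples had in these early levels was not tested.

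**Figure D4:**
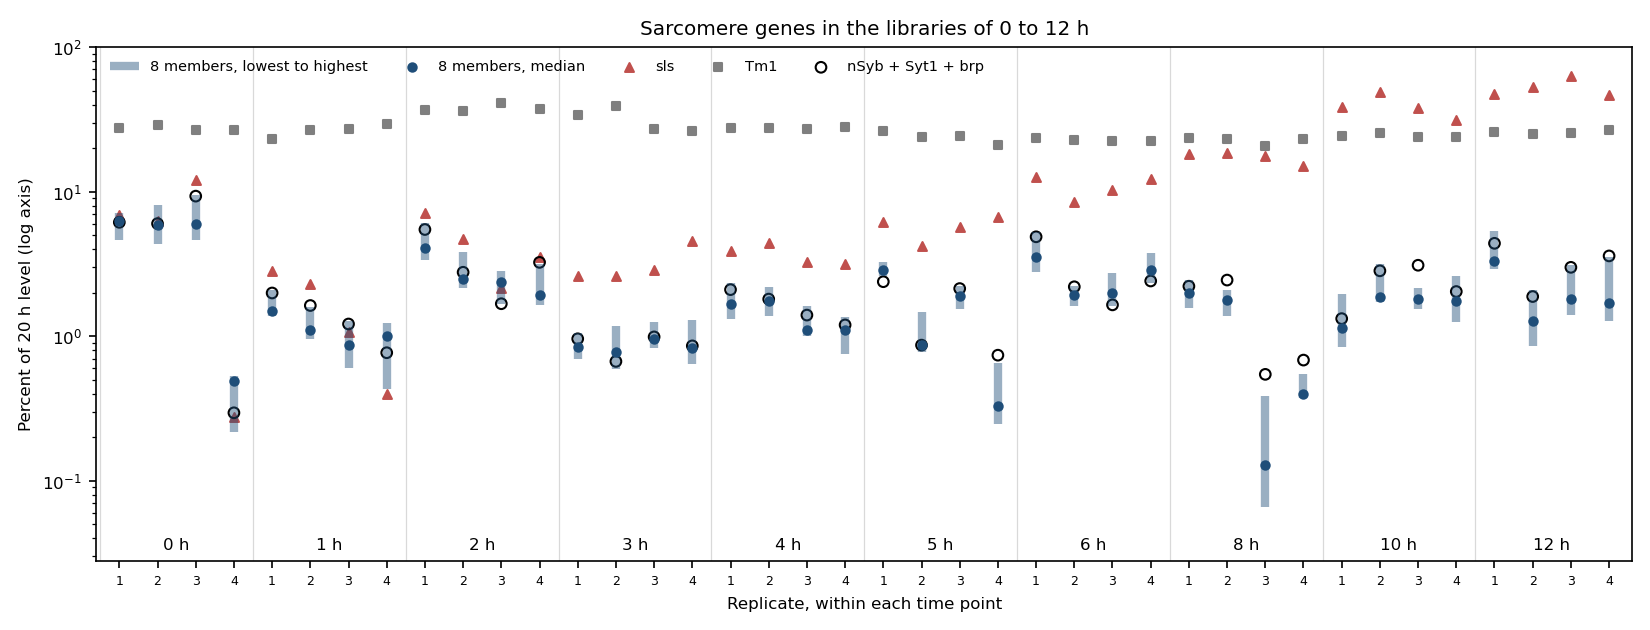
Percentage of the 20 h level (log axis) in each of the 40 libraries of 0 to 12 h, ordered by time point and replicate. Bars span the 8 genes other than *sls* and *Tm1*, blue points are their median, triangles are *sls*, squares *Tm1* and open circles the sum of *nSyb*, *Syt1* and *brp*. The bars and circles fall together in replicate 4 of 0 h (0.487% for the median), and from 3 h on every triangle lies above its bar.

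These levels set the early comparisons. At 1 against 0 h 9 genes fell, all but *Tm1*, where 12.1% of all genes fell. *Mhc* had 7.50, 6.16, 4.39 and 3.73 RPKM at 1 h, against 28.9, 30.1, 37.2 and 1.33 RPKM at 0 h. The groups overlapped through replicate 4 of 0 h, and the log2 fold change was -2.10 ± 0.66 (edgeR adjusted p = 0.0226). Without replicates 1, 2 and 3 of 0 h 0 of the 10 genes were called by edgeR, where 1.36% of 12023 genes tested were, and 3 of the 10 had an unadjusted p under 0.05, against 1698 of all genes. In that fit 0 h had replicate 4 alone, assumed to vary like the libraries of the other time points, and the log2 fold changes of the 9 genes turned positive, from 1.24 for *TpnC73F* to 2.82 for *bt*. Leaving out replicate 3 of every time point also left 0 genes called, where 1.68% of all genes were. Leaving out replicate 1 or 2 left 1, where 3.91% and 9.66% of all genes were called. At 2 against 1 h 9 genes rose, again all but *Tm1*, where 24.5% of all genes rose and the median over all genes was a log2 fold change of 0.75. The median over the 10 genes was 1.67. With only the libraries of 1 and 2 h in the fit, the median over all 8342 genes tested was 0.064. That fit called 7 of the 10 genes and 35.7% of all genes. Without replicate 3 of every time point 5 genes were called at this step, where 30.5% of all genes were. At 3 against 2 h 8 genes fell, all but *Tm1* and *sls*, where 20.1% of all genes fell. Without replicate 1 of every time point 5 were called, where 39.9% of all genes were.

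From 3 to 12 h edgeR called none of the 10 genes at any of 6 steps. The share of all genes called was 1.81% at 4 against 3 h, 3.71% at 5 against 4 h, 3.96% at 6 against 5 h, 4.6% at 8 against 6 h, 9.99% at 10 against 8 h and 0.578% at 12 against 10 h. At an unadjusted p under 0.05 there were 8 of the 10 genes at 8 against 6 h, all with lower values at 8 h, 1 (*sls*) at 10 against 8 h, and 0 at the other 4 steps. Of all genes tested, 25.2% passed at 8 against 6 h, 35.3% at 10 against 8 h, and 14.1%, 27.7%, 25.8% and 14.3% at the other 4 steps in order of time. With replicate 1, 2, 3 or 4 of every time point left out, 6, 8, 0 and 4 of the 10 had an unadjusted p under 0.05 at 8 against 6 h. Of all genes, 18.1%, 22.9%, 17.3% and 20.7% did. DESeq2 called 1 gene, *Mlc1*, at 8 against 6 h and 0 at the other 5 steps. Its share of all genes called was 5.21% at 8 against 6 h and 1.45% to 11.1% at the other 5. Over the spans, 1 gene (*sls*) rose at 3 against 1 h, where 31.1% of all genes rose, and at 8 against 3 h, where 12.3% rose.

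*sls* had a course of its own from 3 to 12 h. Before that it moved with the 8 genes, with means of 0.845 RPKM at 0 h, 0.217 RPKM at 1 h and 0.581 RPKM at 2 h. It had 0.371, 0.303, 0.141 and 0.0530 RPKM at 1 h, 0.343, 0.347, 0.383 and 0.604 RPKM at 3 h, and 1.67, 1.12, 1.36 and 1.62 RPKM at 6 h. At 8 h it reached 2.403, 2.45, 2.35 and 1.98 RPKM, at 10 h 5.12, 6.44, 5.01 and 4.14 RPKM, and at 12 h 6.26, 7.01, 8.30 and 6.18 RPKM. At 6, 8 and 10 h every library was above all libraries of the time point before, as was the case for 19.3%, 16.8% and 27.7% of all genes tested. At 8 against 3 h the log2 fold change was 2.29 ± 0.52 (edgeR adjusted p = 0.000232), and in the comparisons tested this was the only called rise among the 10 genes between 3 and 12 h. The call at 3 against 1 h (log2 fold change 1.14 ± 0.52, edgeR adjusted p = 0.0485) was lost without replicate 2, 3 or 4.

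In replicate 3 of 8 h *sls* stood at 17.7% of its 20 h level while the 8 genes stood at 0.128%, and in the other 8 h libraries *sls* was between 14.9% and 18.5%. It first crossed 50% of its highest median level (12.7 RPKM at 20 h) at 11.7 h. With 1 replicate left out this was 10.5 to 14.7 h, and with TMM-scaled levels 15.0 h. The crossing was not kept: the median of *sls* was 6.64 RPKM at 12 h, but 5.46 RPKM at 14 h and 5.03 RPKM at 18 h, below that 50%. The other 9 genes crossed 50% at 15.4 h (*TpnC73F*) to 18.8 h (*Prm*). For *TpnC73F* that time was 18.6 h with TMM-scaled levels, and for *Tm1* it was as early as 14.1 h with 1 replicate left out, within the span given for *sls*. The crossing of *TpnC73F* was not kept either. Its median was 435 RPKM at 16 h but 234 RPKM at 18 h, below 50% of its 726 RPKM at 20 h. For *Mhc* that time was 18.7 h with all replicates and as early as 15.4 h with 1 left out. With 1 left out it was also as early as 15.4 h for *bt*, 15.7 h for *up* and 16.0 h for *Mlc2*. The median level of *Mhc* at 18 h lay below that at 16 h, as did those of the other 9 genes.

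*Tm1*, which has transcripts in muscle and in other cells, was the other exception. It had 57.4, 60.5, 55.8 and 55.6 RPKM at 0 h, so replicate 4 did not stand apart as it did for the 8 genes. At 2 h it had 77.1, 75.7, 85.6 and 78.0 RPKM, against 48.6, 56.01, 56.8 and 61.2 RPKM at 1 h. These groups did not overlap, and the log2 fold change was 0.90 ± 0.17 (edgeR adjusted p = 1.39e-05), against a median of 0.75 over all genes at that step. Both of these log2 values are TMM-scaled, whereas the RPKM values are not. At 8 h it had 48.8, 48.4, 43.0 and 48.1 RPKM, against 70.8, 81.4, 56.3 and 54.7 RPKM at 3 h, a log2 fold change of -0.69 ± 0.17 (edgeR adjusted p = 0.000708, below the 2-fold minimum). At 20 h it had 165, 132, 266 and 274 RPKM, so that its highest median was 3.83 times that at 1 h. For the other 9 genes this ratio was between 57.3 (*sls*) and 104 (*Mlc2*).

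Ratios between genes whose proteins work together were then compared within libraries, with 14 two-sided exact permutation tests (n = 4 against 4, smallest possible p = 0.0286). The log2 ratio of *sls* to *Mhc* was -0.23 ± 0.71 at 12 h, -3.60 ± 0.27 at 14 h and -4.98 ± 0.38 at 20 h (SD). The drop had p = 0.0286 by exact permutation test at 14 against 12 h and at 20 against 14 h, as did the drop in the ratio of *Tm1* to *Tm2* (-0.24 ± 0.20 at 14 h, 2.23 ± 0.61 at 12 h) and the rise in that of *bt* to *sls* (1.07 ± 0.21 at 14 h, -1.54 ± 0.66 at 12 h). After Benjamini-Hochberg adjustment over the 14 tests these p-values were 0.05, which is at the threshold and not under it. The myosin light chains stayed closer. The log2 ratio of *Mlc1* to *Mlc2* was -0.66 ± 0.17 at 14 h and -0.92 ± 0.09 at 12 h, a difference of 0.26 (exact permutation p = 0.0286, adjusted 0.05), and it differed by -0.20 at 20 against 14 h (exact permutation p = 0.114). The log2 ratio of *up* to *TpnC73F* was 0.30 ± 0.14 at 20 h and -0.57 ± 0.33 at 14 h (exact permutation p = 0.0286, adjusted 0.05), and it differed by -0.21 at 14 against 12 h (exact permutation p = 0.4). For *Mhc* to *Mlc2* and *Prm* to *Mhc* exact permutation p was 0.0857 to 0.657 at both steps.

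**Figure D5:**
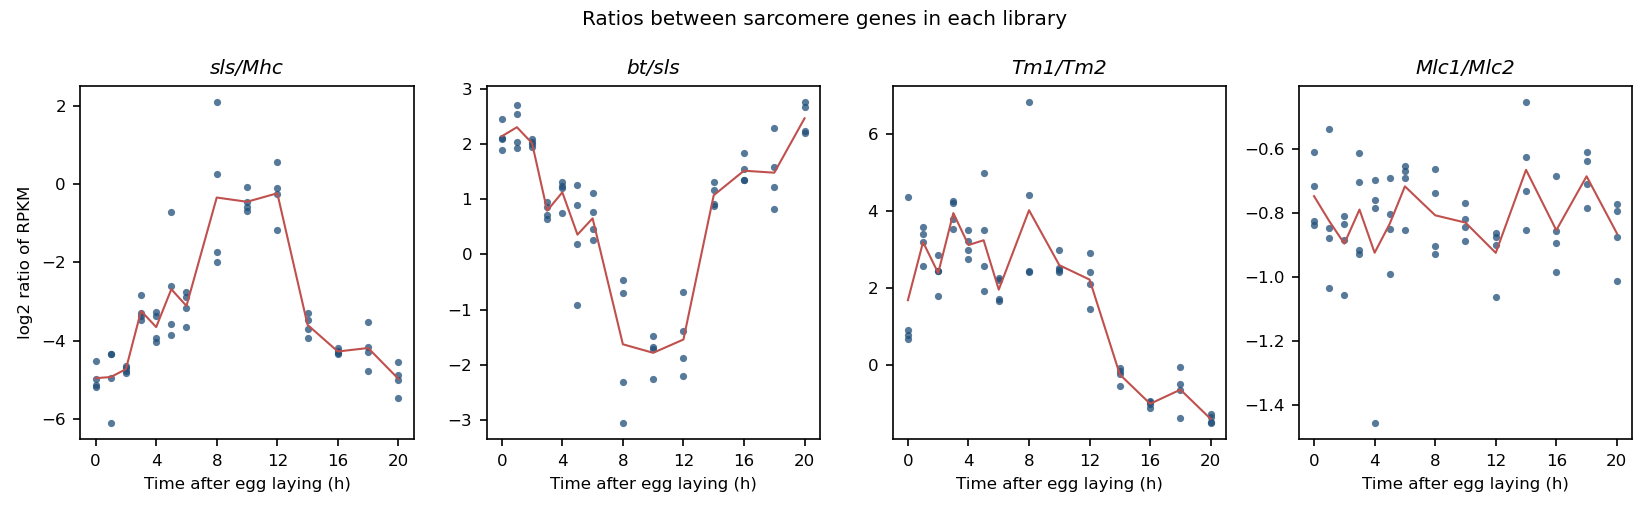
Log2 ratio of RPKM between 4 gene pairs in each library against time after egg laying in h, with 1 point per library and a line through the means. The ratio of *sls* to *Mhc* peaks at 8 to 12 h and reaches -4.98 at 20 h, while that of *Mlc1* to *Mlc2* stays between -1.5 and -0.4.

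Other muscle genes were taken from lists made for this tissue, in which the 10 genes are not counted. Beside the counts of each list stand 30.7% of all genes tested that rose at 14 against 8 h and 22.8% at 20 against 14 h. Of 9 thin filament genes tested, 6 rose at 14 against 8 h and 7 at 20 against 14 h, with list medians of 2.73 and 2.04 on the log2 scale, against 0.15 and -0.12 over all genes. *Act57B*, an actin of larval muscle, had 174 ± 43.9 RPKM at 8 h, 1295 ± 487 RPKM at 14 h and 5623 ± 1403 RPKM at 20 h (SD, n = 4). The troponin C gene *TpnC47D* rose by 4.89 ± 0.58 on the log2 scale at 14 against 8 h (edgeR adjusted p = 6.56e-10), much as *TpnC73F* did. *Act87E*, also a muscle actin, had 79.4 ± 27.2 RPKM at 14 h and 97.2 ± 3.15 RPKM at 8 h, a log2 fold change of -0.47 ± 0.42 (edgeR adjusted p = 0.316), and then rose by 2.92 ± 0.45 at 20 against 14 h (edgeR adjusted p = 4.76e-07).

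Of 6 Z-disc genes tested, 5 rose at 14 against 8 h and 5 at 20 against 14 h. *Mlp60A*, a muscle LIM protein gene, had 3.02 ± 2.54 RPKM at 8 h, 52.8 ± 15.8 RPKM at 14 h and 363 ± 154 RPKM at 20 h. *Zasp52*, which encodes a partner of α-actinin, had a log2 fold change of 0.24 ± 0.33 at 14 against 8 h (edgeR adjusted p = 0.512) and of 1.52 ± 0.34 at 20 against 14 h (edgeR adjusted p = 0.000128). Of 3 further thick filament genes tested, 2 rose at each of these spans. *Mf*, which encodes myofilin, rose by 4.61 ± 0.77 on the log2 scale at 20 against 14 h (edgeR adjusted p = 1.96e-06). *Obsc*, which encodes obscurin, rose by 4.72 ± 0.70 at this span (edgeR adjusted p = 2.85e-07).

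The list of calcium handling and energy held 5 genes, among them a myosin heavy chain-like gene. Of these, 3 rose at 14 against 8 h and 1 at 20 against 14 h, where 30.7% and 22.8% of all genes rose. The arginine kinase gene *Argk1* had 25.0 ± 4.02 RPKM at 8 h, 327 ± 57.9 RPKM at 14 h and 170.0 ± 69.3 RPKM at 20 h. Its rise at 14 against 8 h was 3.57 ± 0.20 on the log2 scale (edgeR adjusted p = 3.5e-19). *SERCA*, the calcium pump of the sarcoplasmic reticulum, had 70.4 ± 31.7 RPKM at 14 h and 76.1 ± 4.33 RPKM at 8 h (log2 fold change -0.26 ± 0.19, edgeR adjusted p = 0.222).

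The non-muscle myosin light chain genes *Mlc-c* and *sqh* were not called at either span. *Mlc-c* had 170 ± 28.5 RPKM at 14 h and 182 ± 7.37 RPKM at 8 h (log2 fold change -0.24 ± 0.08, edgeR adjusted p = 0.00945), below the 2-fold minimum. Of 4 regulators of muscle formation, 0 rose at 14 against 8 h and 1, the mesoderm factor *twi*, fell, where 15.7% of all genes fell. *twi* had 5.11 ± 1.42 RPKM at 14 h and 12.5 ± 0.71 RPKM at 8 h (log2 fold change -1.45 ± 0.30, edgeR adjusted p = 4.77e-05). *how*, an RNA-binding protein gene of muscle and tendon, had 83.5 ± 24.9 RPKM at 14 h and 59.5 ± 2.90 RPKM at 8 h (log2 fold change 0.33 ± 0.15, edgeR adjusted p = 0.0528).

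Markers of other late tissues rose over the same spans. Of 8 cuticle and epidermis genes, 5 rose and 1 (*resilin*) fell at 14 against 8 h, where 30.7% of all genes rose and 15.7% fell. Of 5 neuron genes 3 rose there, the same *nSyb*, *Syt1* and *brp* as above. The syntaxin gene *Syx1A* had 7.48 ± 3.81 RPKM at 14 h and 11.7 ± 0.44 RPKM at 8 h (log2 fold change -0.79 ± 0.23, edgeR adjusted p = 0.002), below the 2-fold minimum. The neuronal RNA-binding protein gene *elav* had 40.9 ± 14.3 RPKM at 14 h and 35.5 ± 2.24 RPKM at 8 h (log2 fold change 0.04 ± 0.36, edgeR adjusted p = 0.922). Among the cuticle genes *verm*, which encodes a chitin deacetylase of the tracheal matrix, had 10.9 ± 6.46 RPKM at 8 h, 255.8 ± 69.6 RPKM at 14 h and 660.6 ± 118.7 RPKM at 20 h. *TwdlM*, of the Tweedle family of cuticle proteins, had 19.2 ± 8.67 RPKM at 14 h and 4.28 ± 7.71 RPKM at 8 h (log2 fold change 2.03 ± 1.25, edgeR adjusted p = 0.14). *TwdlM* rose by 5.88 ± 1.40 on the log2 scale at 20 against 14 h (edgeR adjusted p = 0.000331). By the correlation of mean log2 CPM over 13 time points from 1 to 20 h, the genes most like the mean course of the 10 were *CG1674*, *nSyb*, *trv*, *dpr12* and a gene ID that the annotation used here gives no name, with r = 0.997 each. The 10 genes themselves had r between 0.755 (*sls*) and 0.998 (*bt*) with that mean, to which each contributed.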

How the data were processed

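Total RNA of whole Oregon R embryos was poly(A)-selected and sequenced as single reads. The authors' deposited files hold raw counts per gene, made per the labels with STAR 2.4.0h on BDGP6 and HTSeq 0.6.1p1, with Ensembl release 79 genes in union mode. Rows that name no gene, such as ambiguous reads, made up 3.90% to 10.5% of each file and were left out. The labels describe biological quadruplicates. Replicates were compared by time point. In the main edgeR tests each gene had 1 estimate of the spread between embryo collections, shared by all 56 libraries. It is not the spread of the 2 time points compared alone. The ratio tests used only the 8 libraries of the 2 time points compared.

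Counts on genes were 13422473 to 22536043 per library, and 3 counts corresponded to 0.133 to 0.224 CPM. RPKM was computed from the union of exons in Ensembl release 115, where 17252 of the gene IDs were found. RPKM values were not TMM-scaled unless stated, so fold changes from edgeR can differ from ratios of RPKM. Tests of change used edgeR 4.0.16 under R 4.3.3 (filterByExpr, TMM, quasi-likelihood, a mean per time point over all 56 libraries). Values of p were adjusted by Benjamini-Hochberg over 11065 genes in each of 17 comparisons, 13 of neighbouring time points and 4 of wider spans. A gene was called at an adjusted p under 0.05 and a difference of 1 or more on the log2 scale. The SE given with an edgeR change was derived from its test. It is the absolute log2 fold change divided by the square root of the quasi-likelihood F statistic. Ratios had a pseudocount of 1 count and were tested in Python 3.11.15 with scipy 1.17.1. Scripts were tested on simulated data first.

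The members and lists were chosen with earlier results of these data known. Lists held 54 symbols, of which 49 were matched. From each list the text names the gene highest at 20 h and those with the highest and lowest log2 fold change at 14 against 8 h. Alternatives were DESeq2 1.42.0, its size factors, no filter, fewer libraries, a replicate block and no fold minimum. A length offset and leaving out low-share libraries or single late libraries were added after the data were seen. Same-numbered replicates were not paired. Promoter and protein sequences were not analysed here.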

Additional observations from a re-analysis of the deposited data

Results flagged for a closer look

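In 12 of 140 sets of 4 replicates, the lowest or the highest library stood apart from the other 3 by Dixon's test at the 95% level, which flags about 1 in 20 such sets by chance. At 0 h replicate 4 was low for *Mlc1* (5.04 RPKM, others 54.0 to 59.8 RPKM), *Tm2* (2.68 RPKM, others 31.9 to 35.7 RPKM), *up* (4.27 RPKM, others 51.2 to 53.9 RPKM) and *Prm* (0.873 RPKM, others 12.1 to 13.9 RPKM). At 14 h replicate 4 was high for *Mlc2* (467 RPKM, others 252 to 273 RPKM), *Tm2* (142 RPKM, others 81.9 to 89.3 RPKM) and *TpnC73F* (338 RPKM, others 181 to 183 RPKM). Replicate 4 of 18 h was high for *bt* (74.7 RPKM, others 7.06 to 17.8 RPKM). *Tm1* was low in replicate 3 of 8 h (43.0 RPKM, others 48.1 to 48.8 RPKM) and high in replicate 2 of 10 h (53.0 RPKM, others 50.04 to 50.4 RPKM). *up* was low in replicate 1 of 10 h (9.93 RPKM, others 15.7 to 16.4 RPKM), and *sls* was high in replicate 4 of 3 h (0.604 RPKM, others 0.343 to 0.383 RPKM).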

How the results depend on the processing

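Counts of sarcomere genes called kept within 1.5 times of their value at 14 against 12 h (7 to 8 with 1 replicate left out) and at 14 against 8 h (8 to 9) under all alternatives run. With 1 replicate left out the counts ranged from 0 to 9 at 1 against 0 h, 5 to 9 at 2 against 1 h, 5 to 8 at 3 against 2 h, 0 to 1 at 10 against 8 h, 1 to 10 at 20 against 18 h, 9 to 10 at 20 against 14 h and 0 to 1 at 3 against 1 h. With only the libraries compared in the fit, the counts were 0 at 1 against 0 h, 1 at 10 against 8 h, 4 at 16 against 14 h, 0 at 20 against 18 h and 0 at 3 against 1 h. Without replicates 1 to 3 of 0 h, with 1 library left there, the count at 1 against 0 h was 0. DESeq2 gave 1 at 8 against 6 h and 1 at 16 against 14 h, where it called 5.21% and 3.4% of all genes. The length offset gave 4 at 8 against 6 h, 1 at 10 against 8 h and 1 at 16 against 14 h. There it called 5.88%, 10.5% and 2.61% of all genes. Without a filter on low counts the count at 3 against 1 h was 0, where 38.6% of all genes were called. With no minimum fold change the count there was 2, as it was at 8 against 3 h. Of all 11065 genes, 7477 and 5927 passed without that minimum. Without the low-share libraries the counts were 0 at 20 against 18 h, with 1 library of 18 h left, and 6 at 20 against 14 h, and log2 fold changes turned sign for *sls* at 14 against 12 h (0.067) and for *Mhc* (-0.11), *sls* (-0.034) and *bt* (-0.11) at 20 against 18 h. Single genes were followed at 14 against 12 h, 20 against 18 h and the later 2 spans, and *sls* and *Tm1* also at the earlier 2. The causes of these differences were not tested. With 1 replicate left out, 1.68% to 15.8% of all genes were called at 1 against 0 h and 30.5% to 38% at 2 against 1 h. At 3 against 2 h it was 38.4% to 44.9%, and at 10 against 8 h 6.54% to 9.4%. At 20 against 18 h it was 13.7% to 25.8%, and at 20 against 14 h 29% to 36.4%. At 3 against 1 h it was 45.2% to 47.8%. With only the libraries compared, it was 1.14%, 12.6%, 6.07%, 0% and 47.3% at the steps listed for that fit. The replicate block moved no count of calls by over 1.5 times, with 9 genes at 1 against 0 h, 8 at 14 against 12 h, 7 at 20 against 18 h and 10 at 20 against 14 h. Replicate numbers did not pair libraries: deviations of same-numbered libraries had a mean r of 0.00619 over 364 pairs, against -0.00204 over 1092 other pairs, and 15 of 56 libraries correlated best with their own number. Ratios kept their direction with 1 replicate left out except *Mhc* to *Mlc2* at 20 against 14 h (-0.061 to 0.61). The lowest count of the 10 genes was 18, for *TpnC73F* in replicate 3 of 8 h, a library with 21247304 counts on genes.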
